A study of Mus musculus with 6 samples.

Results

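Among the transcripts that differed between the spleens of Rag2/pfp knockout and wild-type mice, 31 array probes carried no informative gene name, and 21 of them read lower and 10 higher in the knockout. They were chosen as probes that the platform annotation gives no gene symbol, or a clone-type symbol, that were detected on at least 3 of the 6 arrays and whose knockout and wild-type means differed by 1 or more in the authors' log2 values. Of 25697 probes on the array, 12885 were detected on at least 3 arrays, and 923 of these had no symbol or a clone-type symbol. A clone-type symbol is a provisional name taken from a cDNA clone, a sequence entry or a gene prediction, such as those ending in Rik or starting with Gm or AI. The values that chose the members come from the comparison of knockout with wild type, so their differences are a description and not a test. Just inside the limit stood ILMN_2835423 at -1.02 and AI467606 at -1.03 in the authors' log2 values, and just outside it ILMN_1216690 at 0.96 and AW549877 at -0.96.

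Spleen RNA was measured on Illumina Mouse Ref-8 v2 bead arrays, 3 from mice labelled Rag2/pfp KO and 3 from mice labelled wild type. The knockout label names both genes, and the groups share no other treatment or allele that the labels give. The labels give no strain or age and do not say whether an array holds 1 animal or a pool, so the spread between arrays may be technical in part. The antigen receptor genes of B and T cells are assembled by a recombinase that needs the Rag2 protein. Perforin, the pore-forming protein of cytotoxic granules, comes from Prf1, once named pfp. In mice without a working recombinase, B and T cells do not mature, and the spleen keeps its red pulp, myeloid cells and natural killer cells. A bead array probe reports 1 stretch of a transcript, and a probe without a gene name still measures an RNA, whose identity is not known from these files.

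Rag2 signal stayed below detection on all 6 arrays, and both Prf1 probes were detected on all 6. Since the place of these probes in the genes is not known here, neither gene checks the labels. Knockout replicate 2 stood apart in the sex chromosome genes Xist, at 5.13 log2 against 8.13 to 9.41 on the other arrays, and Eif2s3y, at 8.30 against 4.59 to 4.82. Kdm5d was not detected on any array, and Uty did not stand apart on knockout replicate 2, at 5.54 against 4.96 to 5.61. Without that array, limma called 20 members against 19 with it, and 684 against 505 of all 12885 tested probes. All 31 differences kept their sign, which was bound to happen for the 30 members whose groups did not overlap. Of the 6 spleen stroma genes, 5 were detected in both groups and Tlx1 on no array. Their summed signal was 1843 to 5329 in the knockout against 10206 to 13696 in wild type, and 1 of the 5 tested was called lower. Within the list the groups overlapped for Wt1 and Madcam1 and just separated for Nkx2-5, at 6.23 to 6.92 log2 in the knockout against 5.82 to 6.21. The chemokine gene Ccl21a read 9.83 to 11.98 log2 against 12.79 to 13.45, and Cxcl13 read 8.69 to 10.24 against 10.66 to 11.07. Madcam1, at 5.31 to 7.44 against 7.33 to 8.31, was detected on 2 of the 3 knockout arrays. The number of detected probes was 12084 to 12595 per knockout array and 12545 to 13149 per wild-type array. All values below are normalized log2 signals after background correction unless stated, and a difference is knockout minus wild type with its standard error (SE) from the fit over all 12885 tested probes.

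**Figure D1:**
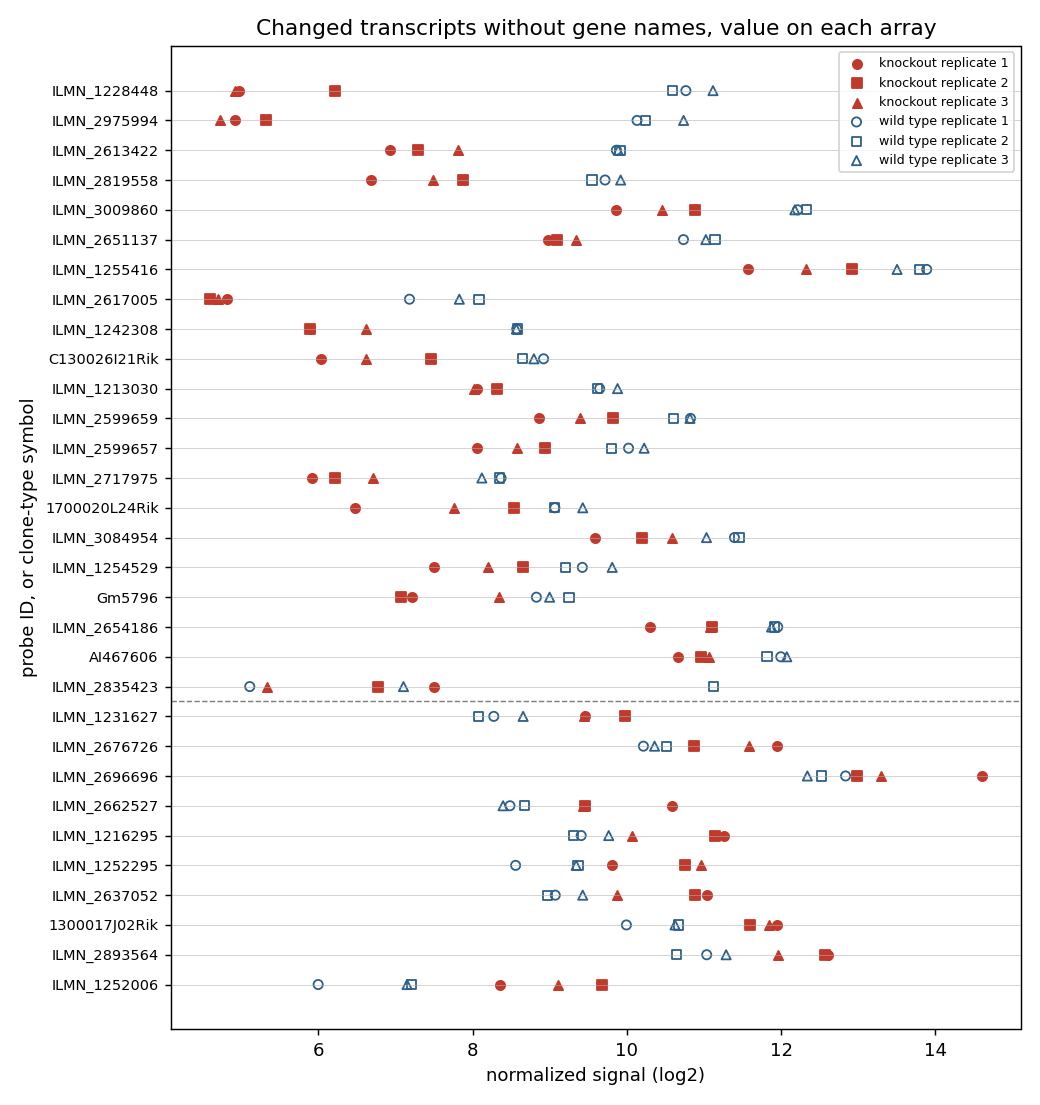
Normalized log2 signal (x axis) of the 31 members (y axis) on each array. Filled red marks are the 3 knockout arrays and open blue marks the 3 wild-type arrays, marker shape gives the replicate, and the dashed line parts the 21 lower members above from the 10 higher members below. The groups are separate for 30 members and overlap for ILMN_2835423. Members were chosen for their group difference, and the groups are separate for 24.4% of all 12885 tested probes.

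Of the 31 members, 26 had no symbol, accession or gene number in the platform annotation and 5 had a clone-type symbol. The 5 symbols, C130026I21Rik, 1700020L24Rik, Gm5796, AI467606 and 1300017J02Rik, were unchanged in the RefSeq gene table of GRCm38.p6, which lists all 5 as protein coding. RefSeq promoters, windows of 300 bases that reach from upstream to just past a gene's start, were found for 4 of the 5. The promoters of 3 members are shown because these members have a known place in the genome and differ in direction, with C130026I21Rik and AI467606 lower and 1300017J02Rik higher in the knockout. Capitals mark matches, on either strand, to motifs known for blood cell factors: the GATA motifs AGATAA and TGATAA, the ETS core GGAAGT, the E-box CAGCTG, the octamer ATGCAAAT and the CACC box CCACACCC. The sequences run 5′ to 3′ on the gene's strand, in GRCm38.p6 at chr1:85270517-85270816 on the minus strand, chr7:127091186-127091485 on the plus strand and chr9:103288248-103288547 on the minus strand.
C130026I21Rik: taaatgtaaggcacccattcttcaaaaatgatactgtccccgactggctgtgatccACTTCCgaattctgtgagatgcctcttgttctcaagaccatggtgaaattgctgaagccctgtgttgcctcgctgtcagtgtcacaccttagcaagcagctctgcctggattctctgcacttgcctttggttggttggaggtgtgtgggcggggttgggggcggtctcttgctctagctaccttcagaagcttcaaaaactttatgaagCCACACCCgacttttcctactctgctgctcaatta
AI467606: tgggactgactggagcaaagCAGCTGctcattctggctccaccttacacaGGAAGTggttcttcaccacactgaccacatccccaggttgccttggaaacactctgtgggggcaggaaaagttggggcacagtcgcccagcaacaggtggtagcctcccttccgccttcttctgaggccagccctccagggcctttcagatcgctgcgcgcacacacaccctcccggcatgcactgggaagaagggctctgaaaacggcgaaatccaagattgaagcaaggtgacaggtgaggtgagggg
1300017J02Rik: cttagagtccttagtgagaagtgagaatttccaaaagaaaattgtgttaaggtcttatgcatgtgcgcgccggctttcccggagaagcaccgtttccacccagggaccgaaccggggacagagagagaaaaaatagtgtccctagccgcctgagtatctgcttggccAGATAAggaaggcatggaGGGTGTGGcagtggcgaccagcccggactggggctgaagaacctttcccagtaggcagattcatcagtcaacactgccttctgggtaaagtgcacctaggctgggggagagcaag

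C130026I21Rik and AI467606 each held 1 match to GGAAGT, C130026I21Rik and 1300017J02Rik each held 1 match to CCACACCC, AI467606 held 1 match to CAGCTG and 1300017J02Rik held 1 match to AGATAA. None of the 3 held TGATAA or ATGCAAAT, the promoter of Gm5796 held none of the motifs, and no match overlapped another. Over all 32851 RefSeq promoters of this length, 23.8% held GGAAGT, 16.3% CAGCTG, 11.2% AGATAA, 9.05% TGATAA, 3.56% CCACACCC and 1.74% ATGCAAAT. A match is a run of letters and does not show that a factor binds there.

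The 1 higher member with a symbol was 1300017J02Rik, whose RefSeq synonyms are Ica and mICA. It encodes an inhibitor of carbonic anhydrase of the transferrin family, and its gene lies next to Trf, the gene of transferrin. 1300017J02Rik read 11.95, 11.59 and 11.85 log2 on the knockout arrays and 9.99, 10.67 and 10.63 on the wild-type arrays, each given in the order of replicates 1 to 3 as everywhere below. All 3 knockout arrays were above all 3 wild-type arrays, by 1.37 ± 0.26 log2 (SE) in the means, or 2.58-fold. In the limma fit Trf differed by -0.17 ± 0.36 (adjusted p = 0.875) and Cdv3, the next measured gene on the other side, by -0.16 ± 0.23 (adjusted p = 0.791), so neither passed.

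The 4 lower members with symbols had smaller differences than the lowest unnamed probes. C130026I21Rik read 6.03, 7.46 and 6.61 log2 on the knockout arrays and 8.92, 8.65 and 8.80 on the wild-type arrays, a difference of -2.09 ± 0.35. Its 3 knockout values spread over 1.43 log2 with replicate 1 lowest, while the wild-type values lay within 0.27. In RefSeq order 15 of its 20 nearest neighbours have clone-type names, and the probe may not tell copies of such genes apart, which was not tested. The next measured genes, Gm7609 at 0.20 ± 0.61 and Sp140, of the nuclear body protein family, at -0.97 ± 0.48, had limma adjusted p-values of 0.911 and 0.340.

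1700020L24Rik read 6.48, 8.54 and 7.75 log2 on the knockout arrays and 9.07, 9.06 and 9.43 on the wild-type arrays. Knockout replicate 1 was lowest and replicate 2 came within 0.52 of the lowest wild-type array, and the difference was -1.60 ± 0.46, or -1.04 without knockout replicate 1. Its neighbours Ap2b1, an adaptor subunit of clathrin coats, and Mmp28, a matrix metalloprotease, differed by 0.04 ± 0.31 and -0.69 ± 0.21 (limma adjusted p = 0.966 and 0.119). In the same fit 1700020L24Rik itself was not called either (adjusted p = 0.0954). Gm5796 read 7.22, 7.07 and 8.35 log2 on the knockout arrays and 8.83, 9.25 and 8.999 on the wild-type arrays, with a difference of -1.48 ± 0.35. Here replicate 3 was the highest knockout array. All 20 nearest RefSeq neighbours of Gm5796 have clone-type names too, and the other probe of the gene stayed at 4.55 to 4.89 log2, below detection on all 6 arrays.

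AI467606 read 10.66, 10.96 and 11.07 log2 on the knockout arrays and 12.00, 11.82 and 12.07 on the wild-type arrays, a difference of -1.07 ± 0.23. Both groups were tight, and the gap between them was 0.75 log2. Of its measured neighbours, Zg16, a zymogen granule protein gene, rose by 1.03 ± 0.22 (limma adjusted p = 0.0379), and Qprt, an enzyme of NAD synthesis, differed by -0.59 ± 0.22 (adjusted p = 0.197). Zg16 thus differed in the direction opposite to AI467606.

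The largest differences of all members belonged to 2 probes without any name. ILMN_1228448 read 4.97, 6.22 and 4.92 log2 on the knockout arrays and 10.77, 10.59 and 11.12 on the wild-type arrays. It was detected in the knockout on replicate 2 alone, and its difference of -5.46 ± 0.36 was the largest of the 31. ILMN_2975994 read 4.91, 5.32 and 4.73 log2 in the knockout, where it was not detected on any array, against 10.13, 10.25 and 10.74 in wild type (difference -5.38 ± 0.27). Against the lowest signal of detected probes it was at least 30.2-fold lower in the knockout, with measured means of 4.99 and 10.37 log2. On the authors' scanner, before normalization, ILMN_2975994 gave signals of 139, 141 and 120 in the knockout and 1510, 1479 and 1783 in wild type.

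Another probe, ILMN_2617005, was also not detected on any knockout array. It read 4.82, 4.60 and 4.70 log2 there and 7.18, 8.08 and 7.83 in wild type (difference -2.99 ± 0.28). By the same measure it was at least 4.74-fold lower, with means of 4.71 and 7.70. The size of these differences depends on the background correction. In the authors' log2 values, which have none, ILMN_1228448 differed by -3.66, ILMN_2975994 by -3.40 and ILMN_2617005 by -1.42. C130026I21Rik, too, was nearer to 0 there, at -1.31.

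Next came a group of probes that were 3.56-fold to 5.82-fold lower in the knockout but still detected on every array. ILMN_2613422 read 6.93, 7.29 and 7.81 log2 in the knockout against 9.87, 9.91 and 9.89 in wild type (difference -2.54 ± 0.27). ILMN_1242308 read 5.89, 5.89 and 6.61 in the knockout and 8.57, 8.58 and 8.57 in wild type (difference -2.44 ± 0.26). Both had nearly equal values on the 3 wild-type arrays and their highest knockout value on replicate 3. ILMN_2819558 read 6.69, 7.88 and 7.49 in the knockout and 9.72, 9.55 and 9.92 in wild type (difference -2.38 ± 0.32). ILMN_2717975 read 5.92, 6.21 and 6.70 against 8.37, 8.35 and 8.12 (difference -2.003 ± 0.26). ILMN_3009860, among the brighter lower members, read 9.86, 10.88 and 10.46 against 12.22, 12.34 and 12.18 (difference -1.84 ± 0.29). In ILMN_2819558 and ILMN_3009860 replicate 1 was lowest and replicate 2 highest in the knockout. ILMN_2651137 read 8.98, 9.10 and 9.34 against 10.73, 11.14 and 11.03 (difference -1.83 ± 0.23). These sizes too shrink in the authors' log2 values, where ILMN_2613422 differed by -1.92, ILMN_2819558 by -1.76, ILMN_1242308 by -1.40 and ILMN_2717975 by -1.13.

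The other lower probes without a name had differences between -1.09 and -1.58 log2 and were detected on all 6 arrays, ILMN_2835423 aside. ILMN_1213030 read 8.06, 8.31 and 8.02 in the knockout and 9.65, 9.62 and 9.88 in wild type (difference -1.58 ± 0.22), with both groups tight. ILMN_2599657 read 8.05, 8.94 and 8.58 against 10.02, 9.80 and 10.23 (difference -1.49 ± 0.28), and ILMN_2599659 read 8.86, 9.82 and 9.39 against 10.83, 10.60 and 10.82 (difference -1.39 ± 0.28). These probes shared the order of the knockout arrays, replicate 1 lowest and replicate 2 highest. ILMN_1255416 read 11.57, 12.93 and 12.32 against 13.89, 13.80 and 13.50 (difference -1.46 ± 0.34), and ILMN_1254529 read 7.50, 8.65 and 8.19 against 9.42, 9.20 and 9.81 (difference -1.36 ± 0.33). The same order of knockout arrays held for both. ILMN_3084954 read 9.59, 10.20 and 10.58 against 11.40, 11.46 and 11.03 (difference -1.17 ± 0.30), and ILMN_2654186 read 10.30, 11.11 and 11.08 against 11.96, 11.92 and 11.88 (difference -1.09 ± 0.27). In both, replicate 1 was again lowest.

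ILMN_2835423 was the 1 member whose groups overlapped. It read 7.50, 6.77 and 5.34 log2 on the knockout arrays and 5.11, 11.12 and 7.10 on the wild-type arrays (difference -1.24 ± 1.26), so its lower knockout mean rests on wild-type replicate 2. Without that array its difference was 0.43, in the other direction, and it was -2.58 without wild-type replicate 1 and -0.64 without knockout replicate 3. On the same array Adipoq, the gene of the fat hormone adiponectin, read 7.84 log2 against 5.004 to 5.59 on the other arrays. Of 5 fat marker genes 4 were on the array, and their summed normalized signal was 345 on wild-type replicate 2, 122 and 144 on the other wild-type arrays and 146 to 153 in the knockout. Plin1 and Fabp4 were not detected on any array, and Lep did not follow, at 5.23 to 5.96 log2. The part of fat RNA in the signal of ILMN_2835423 was not tested.

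**Figure D2:**
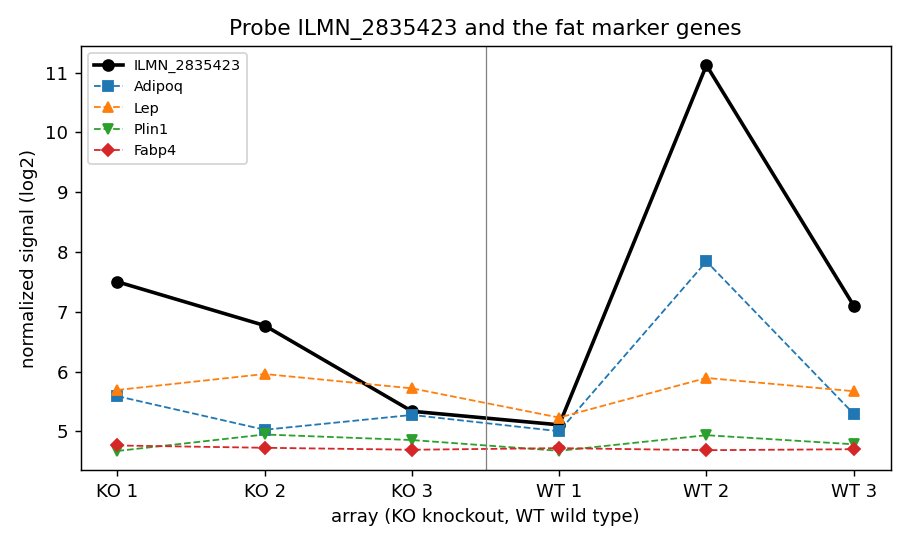
Normalized log2 signal (y axis) of ILMN_2835423 and of the fat marker genes Adipoq, Lep, Plin1 and Fabp4 on each of the 6 arrays (x axis), each point being 1 array. ILMN_2835423 and Adipoq are both highest on wild-type replicate 2, at 11.12 and 7.84.

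The 10 higher members differed less than the lower ones, with a median difference of 1.35 log2 against -1.60 for the 21 lower members. Over all tested probes the median was 0.03. ILMN_1252006 stood highest, with 8.35, 9.68 and 9.11 log2 in the knockout against 5.998, 7.21 and 7.15 in wild type, a difference of 2.26 ± 0.42 or 4.80-fold, and 1.496 log2 in the authors' values. In both groups replicate 1 was lowest. ILMN_1252295 had the same order of lowest arrays, at 9.81, 10.75 and 10.96 in the knockout and 8.56, 9.37 and 9.34 in wild type (difference 1.42 ± 0.36).

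Another set of higher probes had its lowest knockout value on replicate 3. ILMN_2637052 read 11.04, 10.89 and 9.87 log2 in the knockout against 9.07, 8.97 and 9.43 in wild type (difference 1.44 ± 0.33), and ILMN_1216295 read 11.25, 11.14 and 10.07 against 9.41, 9.31 and 9.77 (difference 1.32 ± 0.34). ILMN_2893564 read 12.61, 12.57 and 11.97 against 11.04, 10.65 and 11.29 (difference 1.39 ± 0.28). In all 3, wild-type replicate 3 was the highest wild-type array, so the groups came closest on the arrays numbered 3. ILMN_1231627 read 9.46, 9.98 and 9.45 against 8.28, 8.07 and 8.66 (difference 1.30 ± 0.26).

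The remaining 3 higher probes were highest on knockout replicate 1. ILMN_2696696, the brightest of the higher members, read 14.61, 12.98 and 13.30 log2 in the knockout against 12.84, 12.52 and 12.34 in wild type (difference 1.06 ± 0.40). Replicates 2 and 3 of the knockout lay close to the wild-type arrays, with a gap of 0.14 log2, and without replicate 1 the difference was 0.57. ILMN_2662527 read 10.58, 9.45 and 9.44 against 8.48, 8.67 and 8.40 (difference 1.31 ± 0.33), and ILMN_2676726 read 11.94, 10.88 and 11.59 against 10.22, 10.52 and 10.36 (difference 1.11 ± 0.30).

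**Figure D3:**
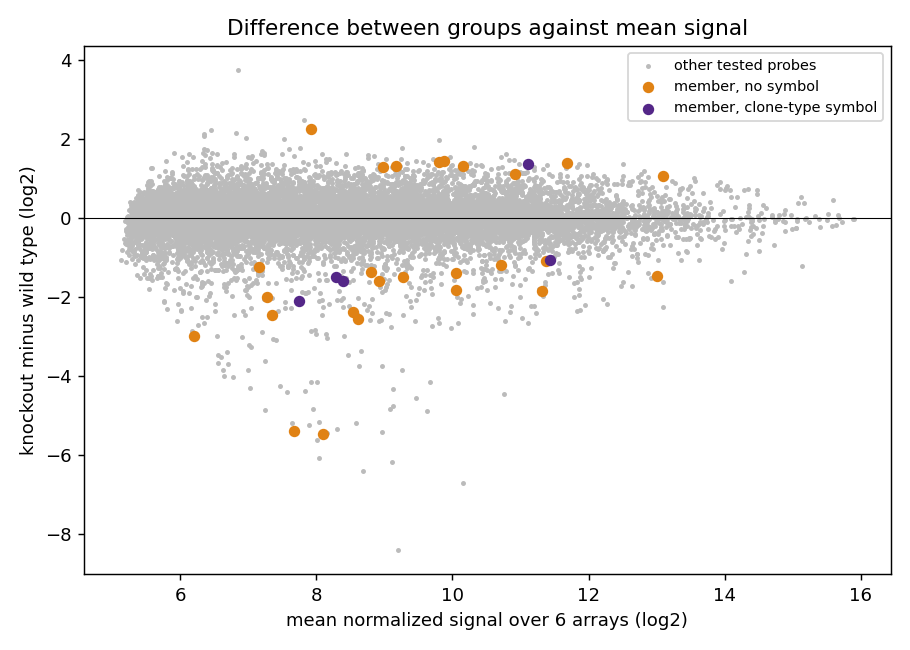
Difference between knockout and wild type in log2 (y axis) against the mean normalized log2 signal over the 6 arrays (x axis) for the 12885 tested probes. Grey points are other probes, orange points members without a symbol and purple points members with a clone-type symbol. Members lie between -5.46 and 2.26, and the members were chosen for their difference.

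The unnamed and clone-named probes changed about as often as the rest of the array. A difference of 1 or more in the authors' log2 values was found for 26 of 768 detected probes without a symbol (3.39%), 5 of 155 with a clone-type symbol (3.23%) and 400 of 11962 with another symbol (3.34%), and for 3.34% of all 12885 tested probes. Lower probes made up 2.21%, 2.58% and 2.39% of these classes, and 2.38% of all tested probes. The shares lay close together, and no test was made of them.

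In the limma fit, 14 of the 21 lower members and 5 of the 10 higher members had an adjusted p under 0.05. The same fit called 2.94% of all tested probes lower and 0.978% higher, 3.92% in all. These member counts follow from the choice of members on the same contrast and are read no further. The count of 19 members called dropped to 9, 11 and 10 without wild-type replicate 1, 2 or 3. Over all tested probes the calls dropped as well, from 505 to 168 without wild-type replicate 1. Without between-array normalization the members called were 1 higher and 20 lower, with the median of all tested probes at -0.33 log2. The groups did not overlap for 20 of the 21 lower and all 10 higher members, against 12.0% and 12.4% of all tested probes in these directions and 24.4% in either.

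The knockout arrays differed among themselves more than the wild-type arrays. The values spread wider in the knockout for 17 of 21 lower members and 8 of 10 higher members, and for 83.1% of all tested probes. The median spread between the highest and lowest array of a lower member was 0.96 log2 in knockout spleen and 0.37 in wild type. Over all tested probes the median spread was 0.79 in the knockout and 0.39 in wild type. Knockout replicate 1 was the lowest knockout array for 14 of the 21 lower members (66.7%) and for 75.2% of the 286 lower probes with other symbols. It was the highest for 7 of the 10 higher members (70.0%) and for 82.5% of the 114 higher probes with other symbols. Replicate 1 was thus most often the knockout array farthest from wild type, among the members and among the named probes that passed the same limit, though in a smaller share of the members.

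Some members moved in parallel. Likeness was measured as the standard deviation (SD) over the 6 arrays of the difference between the log2 values of a pair of probes, which is 0 when they move in parallel. Since the members were chosen on the group difference, pairs in 1 direction are alike in part by that choice. Of 465 pairs of members the closest was ILMN_1216295 and ILMN_2637052 with an SD of 0.07. Next came ILMN_2599657 and ILMN_2599659 with an SD of 0.10. ILMN_2613422 and ILMN_1242308 had an SD of 0.13. Whether the probes of such a pair read 1 transcript is not known from these files.

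To place the probes, the 5 named genes with the nearest profiles were found for each member among 11962 probes with other symbols, over the same 6 arrays. All 5 are given for 4 probes, picked after their values were seen, and the single nearest gene for every other member, whatever its function. A near profile names no probe. The measure includes the group difference on which the members were chosen, so genes with a like difference come out near in part by that choice. ILMN_2975994 was nearest to Cd6, a T cell surface receptor (SD 0.22), followed by Chst3, a sulfotransferase gene (0.25), Cxcr5, the homing receptor of follicular B cells (0.31), Tnfrsf13c, the receptor for the B cell survival factor BAFF (0.32), and Cd3g, part of the CD3 complex of T cells (0.38). Of these, 4 are known from B or T cells. In the knockout Cd6, Chst3, Cxcr5 and Tnfrsf13c read 4.84 to 5.50 log2 and Cd3g read 5.44 to 5.81. The lowest signals of detected probes there were 5.40 to 5.52, so likeness on the knockout arrays is likeness near background. ILMN_3009860 was nearest to Shisa5 (0.11), followed by Gpr84, a receptor of activated myeloid cells (0.12), Chil1, a chitinase-like protein gene (0.12), Cd177, a neutrophil surface protein (0.16), and the lysozyme gene Lyz1 (0.18). ILMN_1252295 was nearest to Klra4, a Ly49 receptor of natural killer cells (0.12), and then, less closely, to Fam131a (0.23), Kcnk1, a potassium channel gene (0.25), Klri2, also a natural killer receptor gene (0.26), and S1pr5, a receptor for the egress of these cells (0.26). Klra4 read 9.59, 10.54 and 10.43 log2 in the knockout against 8.21, 9.02 and 9.02 in wild type, and so shared the low replicate 1 of both groups. ILMN_2696696 was nearest to Stxbp4 (0.091), the stress gene Gadd45a (0.10) and the erythroid genes Ermap (0.11), Hemgn (0.12) and Gata1 (0.13).

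**Figure D4:**
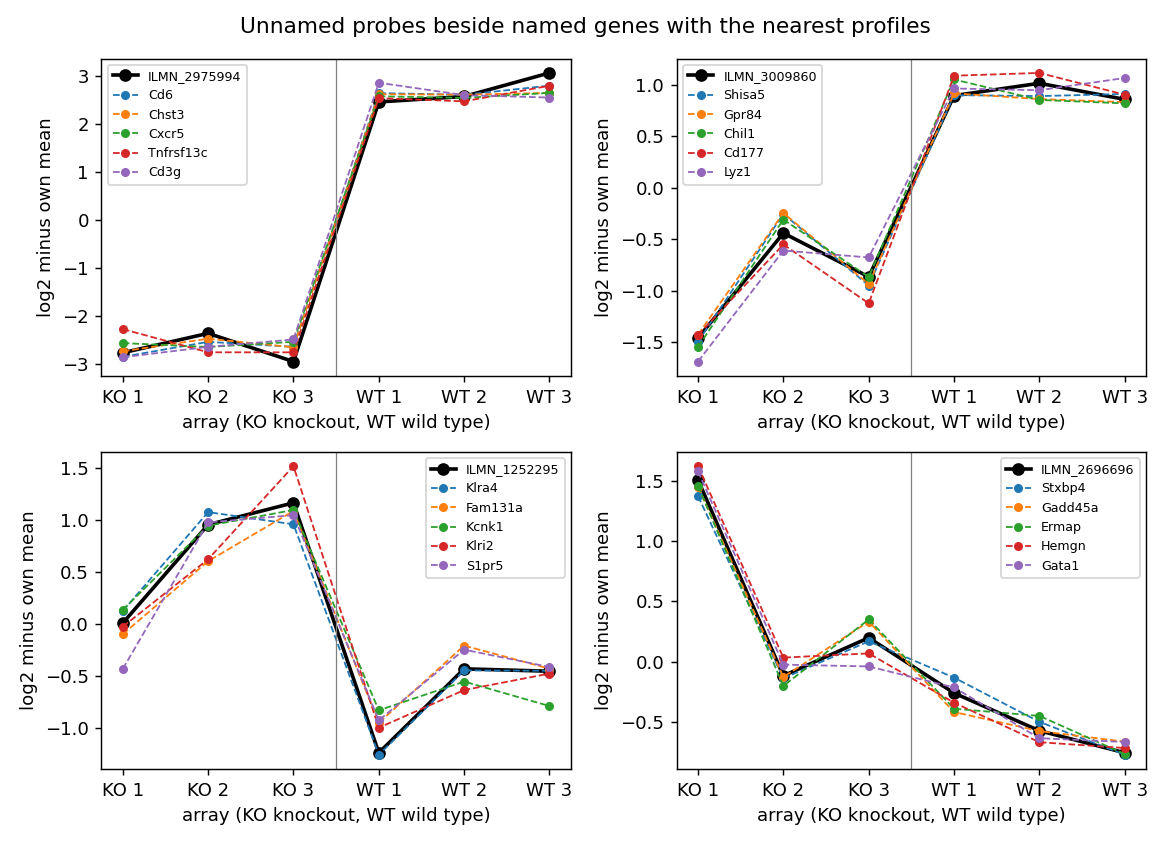
Log2 signal minus the probe's own mean over the 6 arrays (y axis) by array (x axis), for 4 unnamed probes (black) and the 5 named genes with the nearest profiles to each (dashed). ILMN_2975994 and ILMN_3009860 are low on all 3 knockout arrays, ILMN_1252295 is lowest on replicate 1 in both groups, and ILMN_2696696 is highest on knockout replicate 1.

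Of the other lower members, ILMN_1228448 was nearest to Cd6 as well, but less closely (SD 0.41). ILMN_2617005 was nearest to Bhlha15, a transcription factor of secretory cells that plasma cells use (0.20), ILMN_2613422 to Snn (0.11) and ILMN_1242308 to Scml4 (0.14). ILMN_2599657 and ILMN_1254529 shared Rabep2, an adaptor of endosome fusion, as their nearest gene (0.10 and 0.067), and ILMN_2599659 was nearest to the claudin gene Cldn15 (0.094). C130026I21Rik was nearest to Fcnb, which encodes ficolin B (0.12), 1700020L24Rik to Pglyrp1, a peptidoglycan-binding protein of neutrophil granules (0.095), and ILMN_1255416 to Orm1, an acute phase protein gene (0.13). Gm5796 was nearest to Swap70, a signalling protein of B cells (0.13), AI467606 to the protease gene Tmprss13 (0.089) and ILMN_2717975 to Ero1b, an oxidase of protein folding (0.098). ILMN_2819558 was nearest to Rdh12, a retinol dehydrogenase gene (0.14), ILMN_2651137 to Chrnb1, a subunit of the muscle acetylcholine receptor (0.10), and ILMN_1213030 to Zfp296, a zinc finger gene (0.12). ILMN_3084954 was nearest to Sspn, the gene of sarcospan (0.094), and ILMN_2654186 to the glucokinase gene Adpgk (0.039). ILMN_2835423 had no near profile, with Retnla, which encodes a resistin-like protein, the nearest at 1.49. The nearest genes of the lower members were thus a mixed set, and some are known from other tissues. Some also read near background. Tmprss13 read 4.69 to 4.95 log2 in the knockout and 5.60 to 5.93 in wild type. Scml4, Bhlha15, Chrnb1 and Zfp296 read 4.75 to 5.63 in the knockout, where the lowest signals of detected probes were 5.40 to 5.52.

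Of the other higher members, 1300017J02Rik was nearest to Slc6a9, a glycine transporter gene (SD 0.12). ILMN_1216295 was nearest to Pdzk1ip1 (0.075), ILMN_2637052 to Fn3k, a kinase of glycated proteins (0.088), ILMN_2893564 to Katnal1, a subunit of a microtubule-severing enzyme (0.11), and ILMN_1231627 to the myosin gene Myo18a (0.16). ILMN_2676726 was nearest to the tetraspanin gene Tspan8 (0.047) and ILMN_2662527 to Cdc25c, a phosphatase of mitotic entry (0.10). ILMN_1252006 had no close match, with Rcc1, a regulator of the nuclear GTPase Ran, nearest at 0.45.

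Markers of the cell types of spleen were summed on the linear scale, where the brightest genes weigh most, and counted by their limma calls. Of 10 B cell markers 9 were on the array, 5 were detected in the knockout and 8 in wild type, and their summed signal was 726 to 962 in the knockout and 28308 to 33093 in wild type. All 8 tested were called lower. The sum of the T cell markers, 9 of 11 on the array, was 439 to 773 against 9293 to 11007, and 5 of 8 tested were called lower. Ms4a1, Pax5, Fcmr and Cr2 of the B cell list and Cd3e, Cd6, Lef1 and Cd8a of the T cell list were not detected on any knockout array, Pax5 and Cd8a also on no wild-type array. All 8 neutrophil markers were detected in both groups, with sums of 35387 to 94338 against 149797 to 163001, lowest on knockout replicate 1, and 4 of the 8 were called lower. The 7 of 8 erythroid markers on the array were all detected, with sums of 107744 to 132202 against 74933 to 79225, highest on knockout replicate 1, and 3 of the 7 were called higher. Natural killer markers summed to 5201 to 11499 against 7534 to 9182, so these groups overlapped, and Ncr1, Gzma and Eomes were not detected on any array. In limma 0 of the 5 tested were called, and 1 was higher at an unadjusted p under 0.05. Red pulp macrophage markers summed to 36207 to 55450 against 33175 to 56847 and overlapped too, with 0 of 6 called. The 5 platelet markers summed to 13044 to 17300 against 7107 to 10995. In limma 0 of these 5 were called, and 3 were higher at an unadjusted p under 0.05. The sums of the 7 plasma cell markers were 4090 to 6316 against 21713 to 28269, with 4 of 4 tested called lower, and those of the 4 cell cycle markers on the array were 15463 to 24960 against 10465 to 12394, highest on knockout replicate 1, with 1 of the 4 called higher. The part of cell numbers in the members' differences was not tested, and in whole spleen RNA fewer cells of a type and less RNA per cell cannot be told apart.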

How the data were processed

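The deposited scanner table gives each probe's raw signal intensity and detection p-value, per the file headers, and the submitters' processing notes name GenomeStudio 2011.1. The authors also deposited a table of log2 values, with no method stated in the labels. It matched quantile-normalized log2 raw signal to within 5e-07, so its scale is log2, its columns share a median of 7.24, and it is not centred by gene. Background was corrected and arrays were normalized with neqc (offset 16) in limma 3.58.1 (R 4.3.3), so differences understate those of dim probes. Group was the only term of the fit (lmFit, eBayes, two-sided), with Benjamini-Hochberg adjustment over the 12885 probes with a detection p-value under 0.05 on at least 3 arrays. The fit was tested on simulated data. With 3 arrays a group, the number of arrays limits the precision. Groups came from the sample titles. A fold bound sets a group without detection at the higher, per array, of the probe's value and the lowest detected value. Symbols, accessions and gene numbers came from the platform annotation. The members, marker lists and motifs were chosen with earlier results of these data, or the sequences, known. The named members were the 15 lowest, the 10 higher ones and those near the limit. ILMN_3084954, ILMN_1254529, Gm5796 and ILMN_2654186 fell outside this rule and were named after their values were seen, so that every member is given. Genes that are no member are named as neighbours in RefSeq order, as other probes, as markers or, after their values were seen, as nearest profiles.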

Additional observations from a re-analysis of the deposited data

How the results depend on the processing

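Of the 31 differences, 30 kept their sign in every alternative that tested them, and 27 members were tested with detection on all 6 arrays. With 1 array left out this was bound to happen, since the groups of these 30 did not overlap. ILMN_2835423 ranged from -2.58 to 0.43 log2 with 1 array left out, 0.43 being the value without wild-type replicate 2, and was -3.48 with array weights. The count of 505 tested probes called in limma became 873 without between-array normalization (16 higher and 857 lower), 323 with detection on all 6 arrays and 790 with array weights, and with median centring it split into 49 higher and 661 lower. Leaving out 1 array at a time gave 168 to 684 calls over all probes and 9 to 20 among the members, against 19. Without the detection filter 12 members were called, and 346 of all 25697 probes. The fit with the replicate number as a block (replicate block) called 887 probes and 30 members. Same-numbered arrays deviated together only for number 1 (r = 0.50 across probes, -0.28 and -0.04 for numbers 2 and 3). Deviations from a mean of 3 arrays depend on each other, so these values cannot decide whether the numbers pair the arrays. Knockout replicate 2 deviated with wild-type replicate 3 (0.48) and knockout replicate 3 with wild-type replicate 2 (0.50), and a shared chip or day was not tested, since the labels give none. The rule gave 73 members with neqc values, among them all 31, and 6 with a limit of 1.5, all lower, and 27 to 46 with 1 array left out. A chip block was not run, since the files give no chip. Signal near background limits ILMN_1228448, ILMN_2975994 and ILMN_2617005 in the knockout.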
